A study of Mus musculus with 14 samples.

Results

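The probes for mmu-miR-2183, mmu-miR-1191 and mmu-miR-1928 were followed in extracellular vesicles (EVs) that mouse plasma carried after whole-body ionizing radiation (WBIR). They are 3 of the 599 miRNA probes of the nanoString nCounter mouse miRNA panel, which held 626 probes in all with its controls. They were chosen by their counts as deposited, which were higher after WBIR than in sham mice, so that rise is described here and not tested. No threshold on the rise defined the choice. All 3 passed the filter of a mean of at least 10 counts over the samples, as did 176 miRNA probes in total.

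The mice were female C57BL/6J, 6 to 8 weeks old. The 2 Gy group (5 samples) and the 9 Gy group (5 samples) were exposed to WBIR from a Cs-137 source and plasma EVs were collected 3 days later, and the sham group (4 samples) was not irradiated. EVs were pelleted by differential centrifugation of plasma cleared of cells and larger vesicles, and no tissue or cell was assayed. The labels do not say whether a sample is 1 mouse or a pool, so the p-values measure the spread between these samples, which may be technical.

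A miRNA is a short RNA cut from a hairpin precursor, and bases 2 to 8 of the mature strand, the seed, do most of the pairing with target mRNAs. MiRBase numbers miRNAs in the order in which they are submitted, and many entries with high numbers rest on few cloned or sequenced copies. EVs carry miRNAs and fragments of other RNAs out of cells into plasma. In the nCounter assay a tag is joined to each miRNA by ligation over a bridge oligonucleotide, the tagged molecule is captured with a color-coded reporter, and barcodes are counted. A probe count therefore holds the named miRNA, any other RNA that fits the bridge and is ligated, and reporters counted with no target. The panel has its own controls for these steps. The NEG_ probes have no target, the LIG_POS probes count templates added to measure ligation, the LIG_NEG probes are negative controls of that step, and the POS_ probes count targets that need no ligation.

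Mature sequences are shown because they bear on what each probe may capture. RefSeq (mouse GRCm38.p6) held 2 of the 3 members, and none is printed for miR-2183. The panel names miR-1191 with no letter or arm, and it was matched to the RefSeq entry miR-1191a, so what follows on its sequence holds only if the probe was made for that entry. The seed is in capitals, and each sequence reads 5′ to 3′.
miR-1191a: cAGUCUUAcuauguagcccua
miR-1191b-3p: aGACUCACuauguagcccaagc
miR-1928: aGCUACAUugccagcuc
miR-221-3p: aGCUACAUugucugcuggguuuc
miR-222-3p: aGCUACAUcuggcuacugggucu

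miR-1191a is 21 bases long, 42.9% G or C, and lies on the plus strand at chr7:27205615-27205635, within the body of the protein-coding gene BC024978. Among 1678 other mature mouse sequences the closest without gaps was miR-1191b-3p, with 17 matching bases and a shared run of 12, but another seed. No probe for miR-1191b-3p was on the panel. miR-1928 is 17 bases long, 52.9% G or C, and lies on the minus strand at chr1:74206562-74206578, where the table gave no overlapping gene. Its seed is also that of miR-221-3p and miR-222-3p, a pair of related miRNAs. It matched miR-221-3p at 14 of its 17 bases with a shared run of 10, and miR-222-3p at 8 bases. The panel had probes named miR-221 and miR-222, and both had 1 to 11 counts, within the range of most NEG_ probes. The miR-221 count was 6.50 ± 2.65 (SD, n = 4) in sham, 5.00 ± 1.73 (n = 5) at 2 Gy and 5.80 ± 3.11 (n = 5) at 9 Gy, and miR-222 ranged from 1 to 10 counts. Whether the miR-1928 probe captures these relatives was not tested.

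mmu-miR-2183 had the highest counts of the 3 and was the only one of them to exceed every negative control after WBIR. Its sham counts were 47, 29, 38 and 22. At 2 Gy they were 158, 100, 93, 93 and 96, and at 9 Gy 184, 156, 156, 177 and 259. All irradiated samples were above all sham samples, whereas the 2 doses overlapped through replicate 1 of the 2 Gy group. The mean count was 34.0 ± 10.9 (SD, n = 4) in sham, 108 ± 28.1 (n = 5) at 2 Gy and 186 ± 42.5 (n = 5) at 9 Gy. After TMM scaling, which corrects for the depth and composition of each sample, the fitted log2 fold change over sham was 1.81 ± 0.20 (SE) at 2 Gy and 2.27 ± 0.20 at 9 Gy. These ranked 8 and 10 from the top among the 176 probes.

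The other 2 probes sat near background in sham mice. mmu-miR-1191 had 12, 5, 9 and 9 counts in the sham mice, 24, 15, 15, 15 and 14 at 2 Gy, and 27, 29, 35, 23 and 52 at 9 Gy. mmu-miR-1928 had 8, 9, 12 and 7 counts in the sham mice, 18, 13, 18, 19 and 22 at 2 Gy, and 30, 13, 27, 23 and 39 at 9 Gy. For both, every irradiated sample was above every sham sample, and the doses overlapped. Counting error alone is wide at this level. The exact 95% Poisson interval of the lowest miR-1191 sham count, 5, was 1.62 to 11.7, and that of the lowest miR-1928 sham count, 7, was 2.81 to 14.4.

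The fitted log2 fold change over sham was 1.04 ± 0.30 (SE) at 2 Gy and 1.70 ± 0.28 at 9 Gy for miR-1191, and 1.12 ± 0.30 and 1.34 ± 0.29 for miR-1928. As background to these values, the counts of 9.66% of the 176 tested probes lay wholly above sham at 2 Gy and those of 15.3% at 9 Gy, and edgeR called 13.1% and 15.9% higher than sham. Nothing is read from the members' place in these shares, because their rise over sham was the reason for choosing them. Both comparisons use the same 4 sham samples. In a bulk EV preparation, more EVs of one kind and more miRNA in each EV cannot be told apart.

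**Figure D1:**
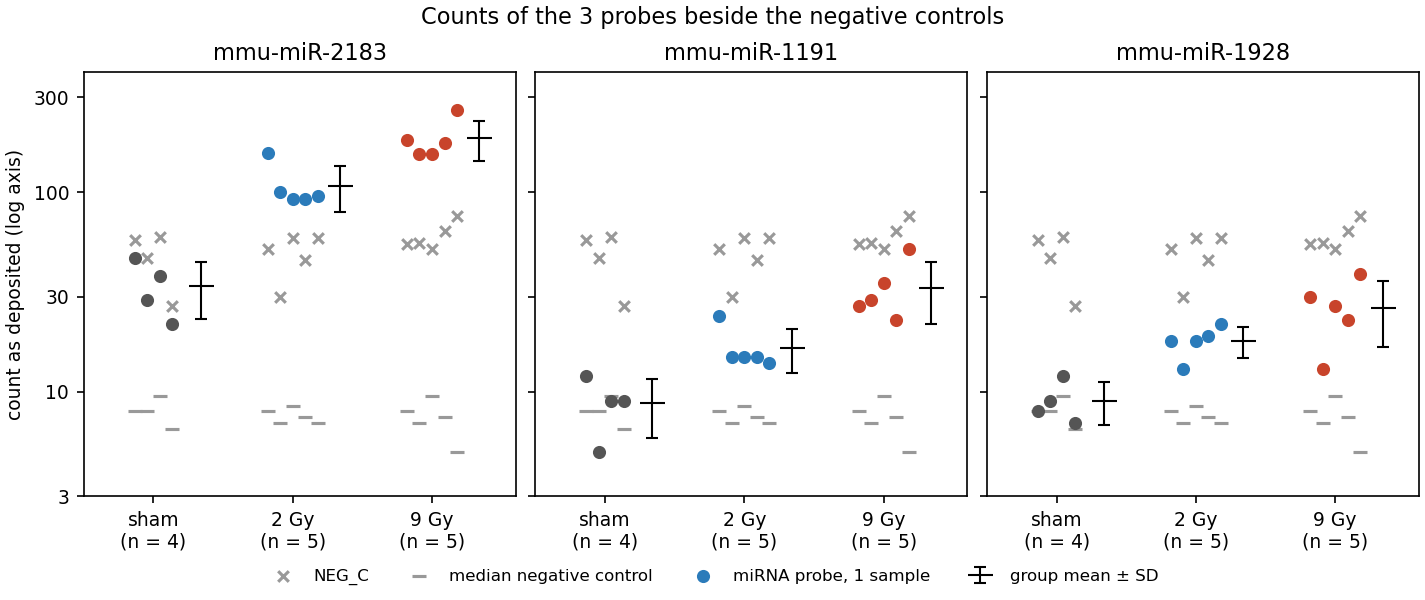
Counts as deposited (log axis) of mmu-miR-2183, mmu-miR-1191 and mmu-miR-1928 in each sample of the sham, 2 Gy and 9 Gy groups, with the group mean ± SD. Grey crosses are NEG_C and grey bars the median negative control of the same sample. The miR-2183 counts exceed NEG_C in all 10 irradiated samples, while miR-1191 and miR-1928 stay below NEG_C in every sample.

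The negative controls of the same sample were set beside each member. The NEG_ probes other than NEG_C had 1 to 18 counts in any sample, and NEG_C had 27 to 76. The LIG_NEG probes had 1 to 14 counts. The median NEG_ count per sample averaged 8.0 in sham mice, 7.6 after 2 Gy and 7.4 after 9 Gy, and its log2 value did not differ between groups beyond the spread (exact permutation p = 0.611, 0.579 and 0.794). NEG_C averaged 48.0 ± 15.1 (SD, n = 4) in sham, 49.2 ± 12 (n = 5) at 2 Gy and 60.6 ± 9.69 (n = 5) at 9 Gy.

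miR-2183 exceeded all 8 NEG_ probes in 10 of 10 irradiated samples and in 0 of 4 sham samples, where it lay below NEG_C but above the other 7. Its ratio to the median NEG_ count averaged 4.22 in sham (3.38 to 5.88), 14.2 at 2 Gy (10.9 to 19.8) and 27.4 at 9 Gy (16.4 to 51.8). Only 4 of the 599 miRNA probes exceeded every NEG_ probe in all 10 irradiated samples, and 1 did so in all 14 samples. miR-1191 never exceeded NEG_C. It was above the other 7 NEG_ probes in 10 of 10 irradiated samples and in 0 of 4 sham samples, with a mean ratio to the NEG_ median of 1.11, 2.18 and 4.93 in sham, 2 Gy and 9 Gy. miR-1928 never exceeded NEG_C either and was above the other 7 in 9 of 10 irradiated samples, the exception being replicate 2 of the 2 Gy group at 13 counts. Its mean ratio was 1.12, 2.38 and 3.86. At 9 Gy the ratio ranged from 3.07 to 10.4 for miR-1191 and from 1.86 to 7.80 for miR-1928. For each member the highest ratio was that of replicate 5 of the 9 Gy group, where the NEG_ median was 5. Thus in sham mice the miR-1191 and miR-1928 probes gave counts like those of probes with no target. Their fold changes over sham are therefore not resolved once background is taken off, since that leaves little or nothing in sham.

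The ligation controls moved with the groups as well. The geometric mean of the LIG_POS probes was 345 ± 223 counts (SD, n = 4) in sham, 2332 ± 485 (n = 5) at 2 Gy and 2650 ± 505 (n = 5) at 9 Gy. It was 7.88-fold higher at 2 Gy than in sham and 8.98-fold higher at 9 Gy (p = 0.00794 at each dose by a two-sided exact permutation test, which can give no smaller value). The doses differed by 1.14-fold, within the spread (exact p = 0.294). The POS_ probes, which need no ligation, gave 1951 ± 136, 1829 ± 200 and 1955 ± 143 counts as geometric means and did not differ beyond the spread (exact p = 0.341 and 0.968 against sham). The counts of miR-2183 as deposited were 3.23- and 5.60-fold above sham, those of miR-1191 1.95- and 3.81-fold, and those of miR-1928 2.01- and 2.82-fold. On the same scale of counts as deposited, the LIG_POS probes differed from sham by more, from 5.89-fold for LIG_POS_A at 2 Gy to 11.5-fold for LIG_POS_C at 9 Gy. On counts less the median NEG_ count miR-2183 was 3.99- and 7.15-fold above sham. At 2 Gy this was still below each LIG_POS probe as deposited. At 9 Gy it was above LIG_POS_A (6.88-fold) and below LIG_POS_B (9.17-fold) and LIG_POS_C. The folds of miR-1191 and miR-1928 less the median NEG_ count rest on sham samples at the floor, so their place in this order is not resolved. Whether ligation accounts for the members' rise was not tested, and group and ligation yield cannot be told apart against sham.

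**Figure D2:**
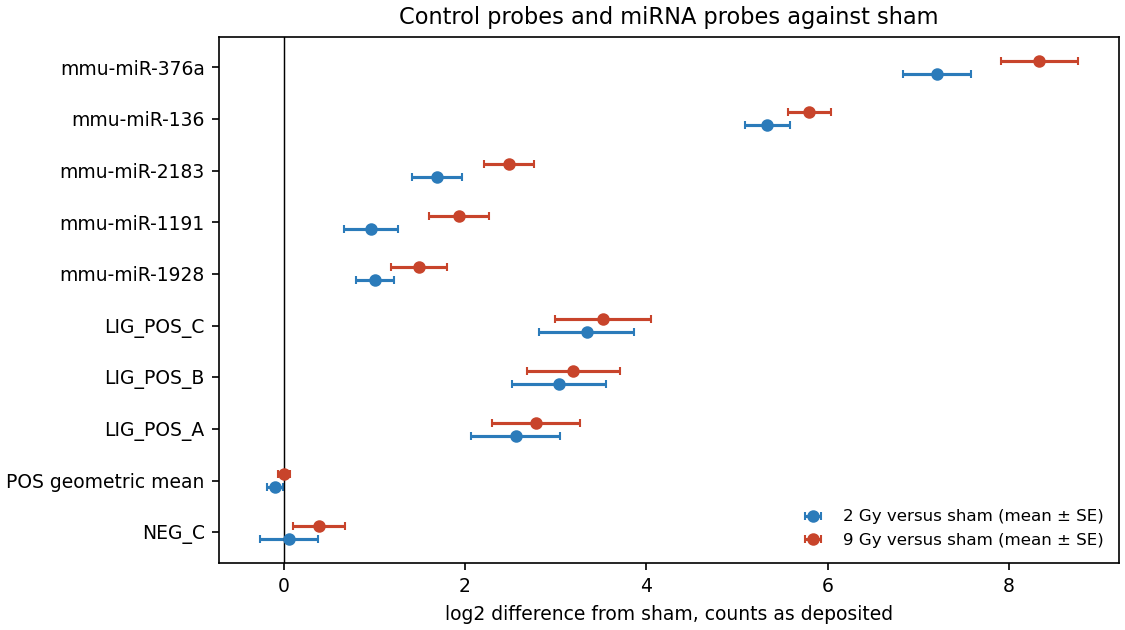
Log2 fold change over sham of counts as deposited, with SE, for the 3 members, the ligation and hybridisation controls, NEG_C, mmu-miR-136 and mmu-miR-376a at 2 Gy and 9 Gy. The members lie between the hybridisation controls near 0 and the LIG_POS probes of the same dose, and miR-136 and miR-376a lie above the LIG_POS probes.

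Set against the LIG_POS rows of the same sample, with only the median NEG_ count taken off, miR-2183 was on average lower than sham at both doses. It lay below NEG_C in every sham sample, so its sham ratio depends on the background taken off. Its count less the median NEG_ count was 61.5, 101, 71.1 and 114 per 1000 LIG_POS counts in the sham group. It was 48.1, 37.8, 42.3, 39.8 and 46.0 at 2 Gy, and 62.6, 66.8, 60.8, 72.5 and 73.3 at 9 Gy. All 2 Gy values lay below all sham values, at 0.506 of sham, while the 9 Gy values overlapped sham at 0.796. On this measure 64.8% of the 176 tested probes lay wholly below sham at 2 Gy. Only 48 probes kept a mean of at least 10 counts once the median NEG_ count was taken off. For a probe at the floor of 1 in both groups the ratio falls by construction, because LIG_POS is higher at 2 Gy. The share therefore does not show how common a fall was among probes above background, such as miR-2183.

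For miR-1191 and miR-1928 the same ratio could not be resolved in sham, since 2 of 4 and 3 of 4 sham samples were left with a net count at the floor of 1. The miR-1191 ratio was 7.99 ± 7.08 (SD, n = 4) in sham, 3.75 ± 0.786 (n = 5) at 2 Gy and 9.48 ± 2.90 (n = 5) at 9 Gy, and that of miR-1928 was 4.99 ± 2.50, 4.70 ± 2.07 and 6.85 ± 2.61. Sham overlapped both doses for both probes. Without subtraction the ratio is lowered for both by construction, because a sham count at background is divided by a smaller LIG_POS value, so no direction is read from it. Per LIG_POS count without subtraction miR-2183 was at 0.410 and 0.624 of sham, while on the same measure mmu-miR-376a was 18.8- and 36.1-fold and mmu-miR-136 5.13- and 6.20-fold above sham.

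**Figure D3:**
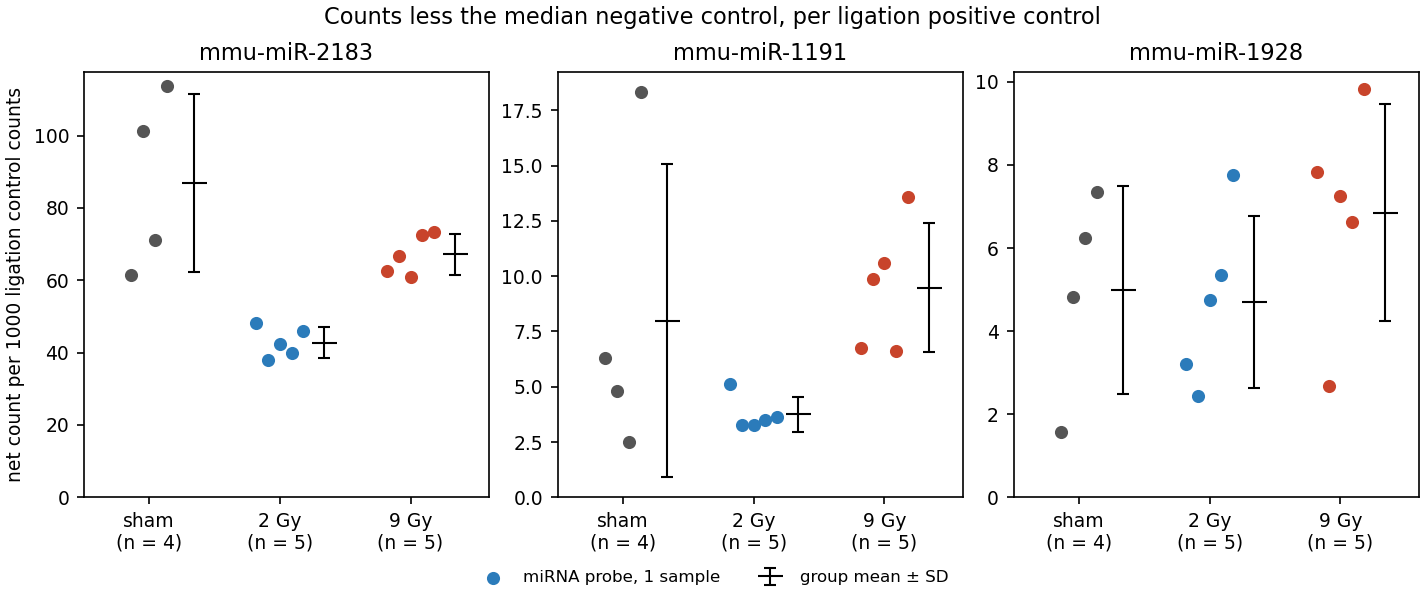
Count less the median negative control per 1000 LIG_POS counts for each member in each sample, with the group mean ± SD. For miR-2183 the 2 Gy samples sit below all sham samples and below all 9 Gy samples, and for miR-1191 the 9 Gy samples sit above all 2 Gy samples. Over all tested probes 64.8% lay wholly below sham at 2 Gy and 4.55% wholly higher at 9 Gy than at 2 Gy on this measure. The share below sham includes probes at or near the floor, for which the fall is given by construction.

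The scaling to the ligation controls, without subtraction, moved the probes as a whole, and for those near background in sham, miR-1191 and miR-1928 included, it lowers the value by construction. Under it the median over all tested probes fell to -3.01 on the log2 scale for 2 Gy and to -2.92 for 9 Gy. On this scale miR-2183 stood at -1.30 and -0.69, miR-1191 at -2.0 and -1.20 and miR-1928 at -1.93 and -1.63. That these values lie above the median follows from choosing the members for their rise over sham, and nothing is read from it.

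**Figure D4:**
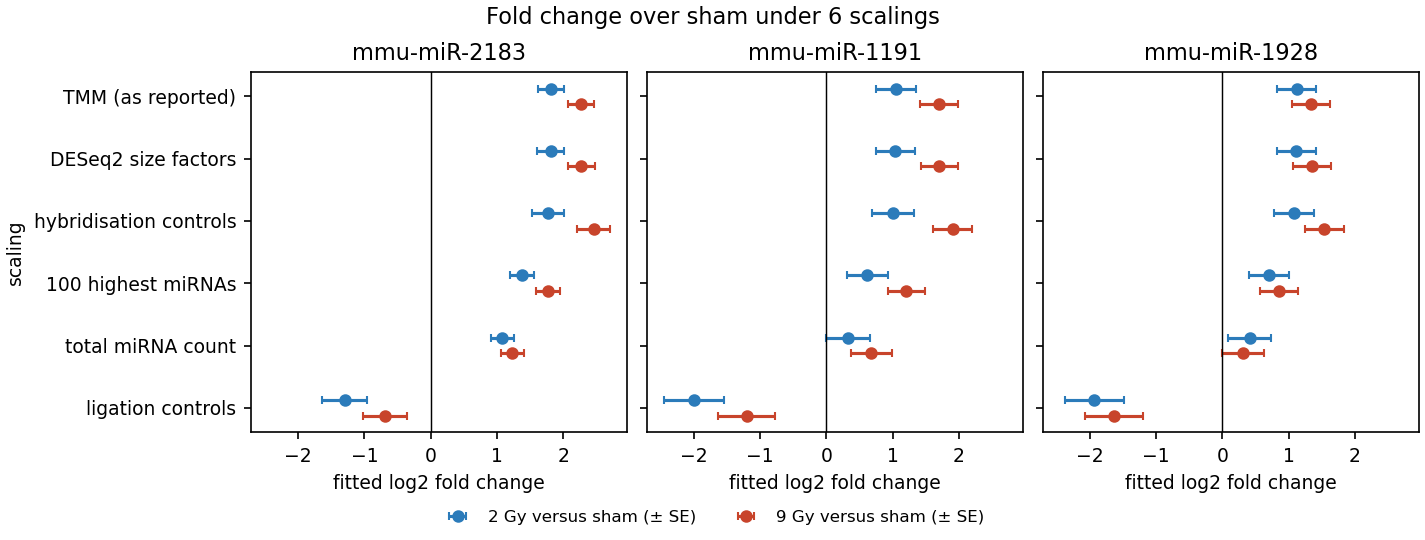
Fitted log2 fold change over sham (± SE) of each member at 2 Gy and 9 Gy under 6 scalings of the counts. The direction is up under the first 5, including scaling to the hybridisation controls, and down for all 3 members at both doses when counts were scaled to the ligation controls without subtraction, a fall that construction gives for miR-1191 and miR-1928, near background in sham.

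The contrast of 9 Gy with 2 Gy did not choose the members, so it was tested. The ligation controls of these groups differed by less than the spread, as given above. edgeR's quasi-likelihood test with Benjamini-Hochberg adjustment over all 176 probes called 0 probes (0%) in either direction, DESeq2 and limma-voom each called 1, and 20 probes had an unadjusted p below 0.05 by edgeR. Of these 15 were higher at 9 Gy (8.52% of those tested), miR-2183 and miR-1191 among them. miR-2183 was 1.37-fold higher at 9 Gy (log2 0.46 ± 0.17 SE, 95% interval 1.09 to 1.72-fold, unadjusted p = 0.00851, adjusted p = 0.125). miR-1191 was 1.58-fold higher (log2 0.66 ± 0.24, 1.14 to 2.17-fold, unadjusted p = 0.00715, adjusted p = 0.125). miR-1928 was 1.17-fold higher, with an interval of 0.845 to 1.61-fold that includes no difference (adjusted p = 0.778). None passed the adjusted threshold of 0.05. Without replicate 1 of the 2 Gy group the miR-2183 difference passed it in edgeR (log2 0.60, adjusted p = 0.0192).

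The total miRNA count rose with dose, from 6042 ± 911 (SD, n = 4) in sham to 9046 ± 919 (n = 5) at 2 Gy and 14276 ± 3549 (n = 5) at 9 Gy. Much of this was miR-376a, whose mean count was 20 in sham, 2817 at 2 Gy and 6414 at 9 Gy. The rise is thus not one of depth alone, and the scaling carries weight in this contrast. On counts as deposited, with no scaling, miR-2183 was 1.73-fold higher at 9 Gy than at 2 Gy, miR-1191 1.96-fold and miR-1928 1.40-fold (exact permutation p = 0.0238, 0.0159 and 0.143, unadjusted). All 3 overlapped between doses, whereas 5.68% of the 176 probes lay wholly higher at 9 Gy. Per LIG_POS count after subtraction, miR-2183 was 1.57-fold higher (log2 0.65 ± 0.08 SE) and miR-1191 2.47-fold higher (1.31 ± 0.23). In this measure no 9 Gy sample of either overlapped a 2 Gy sample (unadjusted p = 0.00794 for either by exact permutation, which can give no smaller value). On this measure 4.55% of the 176 probes lay wholly higher at 9 Gy. miR-1928 was 1.45-fold higher (0.54 ± 0.43), within the spread (exact p = 0.222, unadjusted). These permutation tests were chosen after the data had been seen. Thus the dose difference of miR-2183 and miR-1191 was in the same direction on each of these scales, and its call depended on the scale, whereas miR-1928 was not separable between doses on any of them.

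Within each dose, samples with more ligation control also had more miR-2183. With the dose means removed (n = 10 irradiated samples), the log2 scaled count of miR-2183 followed the log2 LIG_POS mean with Pearson r = 0.954 (exact within-dose permutation p = 0.000347, adjusted p = 0.00313 over 9 relations) and Spearman rho = 0.879 (exact p = 0.00382). Leaving out the 2 samples with the most extreme LIG_POS values, replicate 1 of 2 Gy and replicate 5 of 9 Gy, gave r = 0.908 on scaled counts and 0.637 on counts as deposited. For miR-1191 r was 0.854 (exact p = 0.00389, adjusted p = 0.0175) and rho 0.830 (exact p = 0.00681), but r without those samples was 0.517, and 0.050 on counts as deposited, so the relation rests on them. It also missed the adjusted threshold without replicate 1, 2 or 5 of the 2 Gy group (r = 0.783, 0.861 and 0.836) or replicate 5 of the 9 Gy group (0.774). For miR-1928 r was 0.325 (exact p = 0.396, adjusted p = 0.886) and rho 0.261 (exact p = 0.471), and r ranged from 0.084 to 0.488 with each sample left out. The relations with the POS_ probes and with the NEG_ median had r between -0.31 and -0.07, each with adjusted exact p = 0.886. In sham mice LIG_POS was at 634, 401, 208 and 136 counts where miR-2183 had 47, 38, 29 and 22 counts as deposited, the same order. On scaled counts miR-2183 had 40.1, 37.9, 27.9 and 29.2 in these samples, so the order was not the same. The sham counts of miR-1191 and miR-1928 as deposited did not follow the LIG_POS order.

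**Figure D5:**
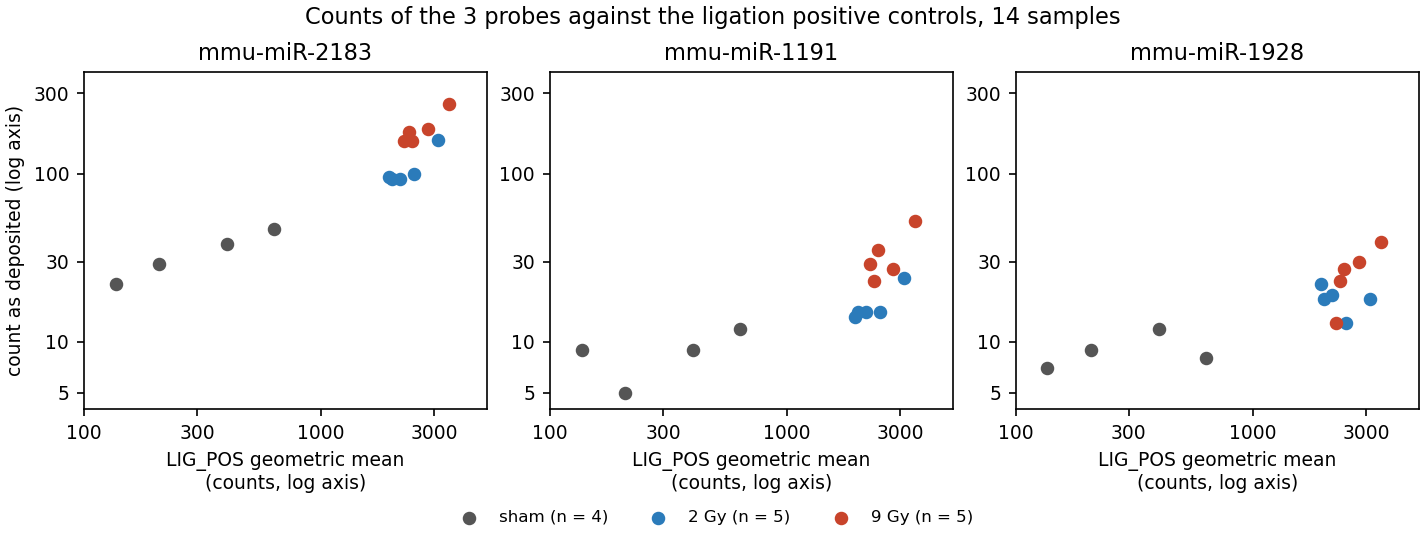
Counts as deposited of each member against the geometric mean of the LIG_POS probes in the same sample (both axes log), colored by group, 14 samples. The sham samples lie apart at 136 to 634 LIG_POS counts, the irradiated samples at 1935 to 3463, and within each dose the sample with the highest LIG_POS has the highest miR-2183 and miR-1191 count.

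The probes whose pattern was most like that of a member were found by Pearson r of log2(scaled count + 1) over all 14 samples, which share the group difference and the ligation yield. For miR-2183 they were miR-376a (r = 0.977), miR-297c (0.966) and miR-377 (0.961). For miR-1191 they were miR-2183 (0.909), miR-872 (0.872) and miR-466d-3p (0.857). For miR-1928 they were miR-539 (0.863), miR-489 (0.852) and miR-2183 (0.835). miR-1191 and miR-1928 had r = 0.754 with each other. Over the 10 irradiated samples with the dose means removed r was lower for these pairs, at 0.885 for miR-2183 with miR-297c, 0.884 with miR-377 and 0.759 with miR-376a. It was 0.713 for miR-1191 with miR-2183, 0.384 for miR-1928 with miR-2183 and 0.319 for miR-1191 with miR-1928.

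The members are late entries of miRBase, so the other such entries were set beside them. The panel had 111 probes named with a number of 1000 or more, of which 25 passed the filter. With the 3 members left out, 1 of the other 22 was called higher than sham at each dose by edgeR, miR-1839-3p, and 0 were called lower. The median of their log2 fold changes was -0.01 after 2 Gy and -0.10 after 9 Gy, against 0.05 and 0.01 over all 176 probes, which the scaling centres near 0. Between the doses edgeR called 0 of the 25, and the smallest p-values were those of miR-1839-3p (log2 0.78 ± 0.25 SE, unadjusted p = 0.00333, adjusted p = 0.125) and of miR-1191.

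To ask whether the members' sequences recur in gene starts, words of 12 bases were searched on both strands of 32544 RefSeq promoter windows (250 bases before to 50 after a start). Every such word of each mature sequence was searched, and the one found in the most windows was kept. The miR-1191a word CTATGTAGCCCT occurred in 14 windows (0.0430%), and 15.6% of all mature miRNAs had a word found at least as often. The miR-1928 word AGCTACATTGCC occurred in 2 windows (0.00615%), and 94.2% of mature miRNAs had one found at least as often. A short sequence such as miR-1928 has fewer words to choose from, which by itself raises the share of miRNAs at or above it. A match is only a run of letters and does not show what was captured.

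Markers of the cells that shed EVs into plasma were given for the same samples. Of 8 miRNAs typical of blood cells and platelets 5 passed the filter. miR-142-5p, of blood cells in general, averaged 951 counts in the sham group, 565 at 2 Gy and 646 at 9 Gy as deposited, whereas the other 4 had higher mean counts in both irradiated groups than in sham. miR-451 and miR-16, of red cells, averaged 49.3, 130 and 70.0 and 14.3, 45.0 and 36.4. miR-486, also of red cells, averaged 10.5, 13.2 and 12.4, and miR-223, of myeloid cells and platelets, 8.75, 12.8 and 13.4. The other 3 of the 8 were below 10 counts on average. miR-486 and miR-223 exceeded NEG_C in 0 samples and every other NEG_ probe in only 5 of 14. Fitted log2 differences from sham at 2 Gy and 9 Gy were 1.57 ± 0.71 (SE) and 0.36 ± 0.71 for miR-451. They were 1.81 ± 0.40 and 1.17 ± 0.40 for miR-16, 0.47 ± 0.37 and 0.05 ± 0.37 for miR-486, and 0.68 ± 0.32 and 0.42 ± 0.32 for miR-223. The summed count of the 8, most of it miR-142-5p, was 905 to 1144 in sham, 702 to 953 at 2 Gy and 710 to 1004 at 9 Gy. The 4 liver and muscle markers summed to 22 to 36 counts in the sham group, 28 to 35 at 2 Gy and 27 to 36 at 9 Gy, and none of them exceeded NEG_C in any sample. The part of these cells in the members' counts was not tested.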

How the data were processed

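The deposited values are counts per probe, which were neither scaled nor background-subtracted by the authors, who used nSolver for their own normalization. 100 ng of RNA entered the assay. Probe sequences and the time of sham collection were not given in the sources used here. The members and all lists were chosen with earlier results of these data known. TMM factors were computed over the 599 miRNA probes (4781 to 20150 counts per sample), probes with a mean of at least 10 counts were kept, and all 14 samples were fitted with edgeR 4.0.16 (R 4.3.3, quasi-likelihood, robust, two-sided, Benjamini-Hochberg). The code was tested on simulated data. Control probes and within-dose relations were compared by exact permutation (scipy 1.17.1). Other probes were named as the closest 3 to each member in pattern, the closest in sequence, miR-376a and miR-136, and the 2 late entries with the smallest p between doses. miR-222, a further probe sharing the miR-1928 seed, was added after its values were seen. Alternatives were other scalings, filters, background subtraction, a replicate block, limma-voom (limma 3.58.1), DESeq2 1.42.0 and each sample left out. Poisson intervals cover counting error only, and those of fitted folds come from the edgeR SE. Each of the 26 replicate pairs differed beyond counting noise.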

Additional observations from a re-analysis of the deposited data

Results flagged for a closer look

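In 27 combinations of a member or control value and a group, 3 single samples lay apart from the rest of their group by Dixon's criterion, which chance meets in about 1 in 20 groups. The miR-2183 count of replicate 1 of the 2 Gy group was 158, with the nearest other sample at 100. The miR-2183 count of replicate 5 of the 9 Gy group was 259, with the nearest at 184. The miR-1191 count of replicate 1 of the 2 Gy group was 24, with the nearest at 15. These samples also had the highest LIG_POS mean of their group, 3121 counts for replicate 1 at 2 Gy and 3463 for replicate 5 at 9 Gy. The part of ligation in these counts was not tested.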

How the results depend on the processing

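Log2 differences from sham after 2 Gy and after 9 Gy were 1.09 and 1.24 for miR-2183, 0.33 and 0.68 for miR-1191 and 0.41 and 0.31 for miR-1928 with total count scaling, which moved the median of all probes to -0.66 and -1.02. Scaled to the 100 highest miRNAs they were 1.38 and 1.77 for miR-2183, 0.62 and 1.21 for miR-1191 and 0.70 and 0.85 for miR-1928. Scaling to the ligation controls turned all of them, to -1.30 and -0.69 for miR-2183, -2.0 and -1.20 for miR-1191 and -1.93 and -1.63 for miR-1928, which for the last 2, at background in sham, follows from construction. Median negative control subtraction gave 2.01 and 3.05 for miR-1191 and 2.99 and 3.42 for miR-1928, higher by construction and resting on sham samples at the floor of 1. Taking off the NEG_ mean plus 2 SD gave 5.86 and 6.90 for miR-2183, values set by the floor of 1 at which all 4 sham samples lay, and left miR-1191 and miR-1928 below the filter, as did a filter of 30 counts. Probes called against sham, 26 at 2 Gy and 30 at 9 Gy, became 106 and 145 (12 and 15 of them higher) with total count scaling, 49 and 75 with the 100 highest (15 and 21 higher, against 23 and 28 with TMM), 169 and 167 (2 higher at each dose) with ligation scaling, 9 and 11 with the filter of 30, 7 and 8 with the stricter subtraction, and 17 at 2 Gy with limma-voom. Between the doses, calls went from 0 to 7 with total count scaling, 12 with hybridisation control scaling, 5 with the stricter subtraction, and 1 each with limma-voom and DESeq2. The miR-2183 difference passed the threshold with hybridisation control scaling (0.69, adjusted p = 0.0401 in edgeR) and with the stricter subtraction (1.04, adjusted p = 0.00623), and that of miR-1191 with hybridisation control scaling (0.90, adjusted p = 0.0334). The permutation tests added after the data were seen gave 0.79 for miR-2183 and 0.97 for miR-1191 as deposited and 0.65 and 1.31 per LIG_POS count. miR-1928 turned to -0.11 with total count scaling. Replicate numbers did not pair the samples (r between -0.0808 and 0.176 over 13 same-number pairs, 1 of them over 0.1). With the replicate block 3 probes were called between doses, and miR-2183, miR-1191 and miR-1928 stood at 0.46, 0.66 and 0.21, none past the threshold. Leaving out each sample in turn, the differences between doses ranged from 0.38 to 0.60 for miR-2183, 0.50 to 0.80 for miR-1191 and 0.09 to 0.40 for miR-1928, with 0 to 3 probes called. Calls against sham ranged from 20 to 26 and from 26 to 32. The ligation relation of miR-1191 missed the threshold with counts as deposited (r = 0.804) and with net counts (0.847), and ranged from 0.774 to 0.923 with each sample left out. The relations with the hybridisation controls turned positive on counts as deposited (0.15, 0.18 and 0.13 for miR-2183, miR-1191 and miR-1928) and on net counts (0.14, 0.094 and 0.11). With each sample left out they ranged from -0.53 to 0.015, -0.28 to 0.18 and -0.38 to 0.18, and those with the negative controls from -0.55 to 0.084, -0.50 to 0.51 and -0.26 to 0.47. Per LIG_POS count without subtraction the log2 differences from sham were -1.29 and -0.68 for miR-2183, -2.02 and -1.24 for miR-1191 and -1.97 and -1.67 for miR-1928, with the same limit. With NEG_C left out, miR-1191 exceeded all NEG_ probes in 10 samples and miR-1928 in 9. The causes of the other differences were not tested. Counts near 10 in sham limit miR-1191 and miR-1928, whose fold changes over sham rest on few counts.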
